A study of Mus musculus with 4 samples.

Results

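The red blood cell keeps its shape through a protein skeleton that lies under its membrane and is tied to membrane proteins, and 8 genes of this system were followed in liver myeloid cell libraries of newborn mice. The genes were Slc4a1, Rhag, Ank1, Epb42, Sptb, Epb41, Dmtn and Bpgm, taken by symbol from the 24706 genes of the deposited tables. Each symbol matched 1 gene. The libraries came from 2 genotypes. The control group, labelled wt, is PD-1f/f, mice in which LoxP sites flank the exon of Pdcd1, the gene of the immune checkpoint receptor PD-1. The group labelled cko is PD-1f/f; LysM-Cre, which carries the same floxed alleles and in addition Cre recombinase under the LysM (Lyz2) locus, expressed in myeloid cells. Each group has 2 libraries, so the floxed allele is shared by all 4 and the Cre by the 2 cko libraries only. The methods call the controls wild type, and do not say whether a library is 1 animal or a pool. The results place the mice at postnatal day 3 and describe CD11b+ liver cells isolated by flow cytometry, whereas the methods place them at day 2 and name liver RNA without a sort.

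Background on the 8 proteins helps to order the values. Band 3 (Slc4a1), the anion exchanger of the red cell, and the Rh-associated glycoprotein (Rhag) span the membrane. Ankyrin-1 (Ank1) and protein 4.2 (Epb42) fasten band 3 to beta-spectrin (Sptb), part of the mesh of the skeleton, and protein 4.1 (Epb41) and dematin (Dmtn) hold this mesh together at its actin junctions. Bpgm is no structural protein: it is the enzyme that makes 2,3-bisphosphoglycerate, the metabolite that lowers the affinity of haemoglobin for oxygen. These genes are switched on together during red cell formation, which takes place in the fetal and newborn liver, and Epb41 and Ank1 are also used in other cells. In the deposited gene ontology annotation, 4 of the 8 (Slc4a1, Epb42, Sptb and Dmtn) shared the term cortical cytoskeleton, 3 (Slc4a1, Sptb and Rhag) shared ankyrin binding, and 3 (Dmtn, Bpgm and Rhag) shared erythrocyte development.

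Values are FPKM, fragments scaled to transcript length and to the mapped fragments of the library, so that levels of different genes are per length. The libraries held 17691505 to 22212407 counted reads, as worked out from the steps between FPKM values. Pdcd1 stood at 28.5 and 34.7 FPKM in wt and at 17.1 and 21.4 in cko, and Lyz2, whose locus holds the Cre, at 31306 and 32147 in wt and 10422 and 8127 in cko. Itgam, which encodes CD11b, lay at 48.5 to 54.3 FPKM and the leukocyte gene Ptprc at 58.1 to 75.1. Red cell genes were therefore measured in libraries with a strong myeloid signal. In such bulk samples, fewer cells of a type and less RNA per cell cannot be told apart. As the sources do not say that the libraries come from separate animals, p-values measure only the spread between these samples.

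All 8 genes were lower in both cko libraries than in both wt libraries. The mean FPKM in cko was 37.3% of the wt mean for Epb42, 43.2% for Bpgm, 46.0% for Dmtn, 52.0% for Rhag, 64.6% for Slc4a1, 76.0% for Ank1, 77.7% for Sptb and 88.9% for Epb41. The groups did not overlap in this direction for 7 of the 7 genes tested, where 18.0% of all 10779 tested genes had both cko libraries below both wt libraries, nor for Ank1, which was too low to be tested. Epb42, Bpgm and Dmtn passed the threshold of the study's results, a log2 fold change below -1 with an unadjusted p under 0.01, against a background of 0.408% of tested genes. Rhag, at a smaller fold, also had an unadjusted p under 0.01, which made 4 of 7 lower genes at this level against a background of 1.25%, and the same 4 passed an unadjusted p of 0.05, where the background was 4.95%. After Benjamini-Hochberg adjustment in limma over all tested genes no member passed 0.05, and no gene at all did with a log2 fold change of at least 1 in size (0 of 10779, 0.0%), although 534 genes lower and 1234 higher in cko had an unadjusted p under 0.05. This split, and the 4.95% drawn from it, depends on the scaling between libraries, with 817 lower and 852 higher under median-of-ratios scaling, 855 and 796 under quantile normalisation and 743 and 928 after rescaling without the 10 highest genes. An exact permutation test of 2 against 2 libraries cannot go below p = 0.333.

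**Figure D1:**
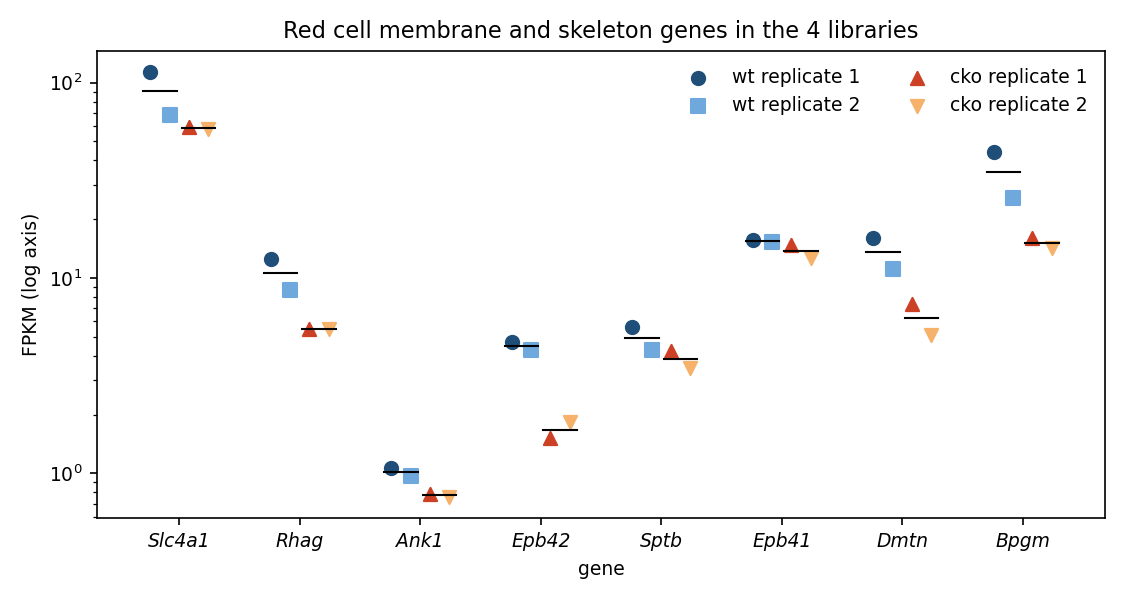
FPKM on a log axis for each of the 8 genes, grouped along the horizontal axis; circles and squares are wt replicates 1 and 2, triangles pointing up and down are cko replicates 1 and 2, and short lines are group means. Both cko points of every gene lie below both wt points, with the widest relative gap for Epb42 (cko mean 37.3% of the wt mean) and the narrowest for Epb41 (88.9%).

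Of the membrane-spanning proteins, Slc4a1 was the most abundant of the 8 genes. Slc4a1 (ENSMUSG00000006574, chr11:102348824-102366203, minus strand, GRCm38) was at 113 and 68.4 FPKM in wt replicates 1 and 2 and at 59.5 and 58.0 FPKM in cko replicates 1 and 2. The cko libraries lay close together and below both wt libraries, and wt replicate 1 stood well above the other 3. Group means were 90.9 ± 31.8 (SD, n = 2) in wt and 58.7 ± 1.03 (SD, n = 2) in cko. The log2 fold change of log2(FPKM + 1), the scale of all fold changes below unless said otherwise, was -0.58 (SE 0.25, limma adjusted p = 0.332), with a 95% interval from -1.21 to 0.05 that includes no difference. Without wt replicate 1 it was -0.22, and without wt replicate 2 it was -0.94.

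Rhag showed a larger relative difference at a lower level. Rhag (ENSMUSG00000023926, chr17:40811126-40840754, plus strand, GRCm38) was at 12.5 and 8.68 FPKM in wt and at 5.50 and 5.51 in cko. The reads behind these values were 649 and 382 in wt and 241 and 228 in cko, so the cko libraries were nearly equal and the wt libraries were not. The log2 fold change was -0.81 (SE 0.21, limma unadjusted p = 0.00983, adjusted p = 0.214), short of the fold threshold. It was -0.57 (limma unadjusted p = 0.0542) without wt replicate 1 and -1.05 (limma unadjusted p = 0.00726) without wt replicate 2.

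The anchors between membrane and skeleton stood apart in size of difference. Epb42 (ENSMUSG00000023216, chr2:121017891-121037072, minus strand, GRCm38) was at 4.69 and 4.31 FPKM in wt and at 1.52 and 1.84 in cko. This was the gene with the tightest wt pair relative to the gap between the groups. The 95% counting interval of the lower wt library, 3.91 to 4.73 FPKM, lay above that of the higher cko library, 1.58 to 2.13 FPKM. The intervals cover counting error only. The log2 fold change was -1.04 (SE 0.20, limma unadjusted p = 0.00236, adjusted p = 0.199), and on the scale of mean FPKM without a pseudocount the log2 ratio was -1.42. The pseudocount of 1 thus understates the change of this low gene.

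Ank1 lay near the limit of what was tested. Ank1 (ENSMUSG00000031543, chr8:22974844-23150497, plus strand, GRCm38) was at 1.07 and 0.966 FPKM in wt and at 0.785 and 0.761 in cko, which rests on 321, 246, 199 and 182 reads over 13527 exonic bases. Its mean of 0.895 FPKM kept it under the minimum of 1 FPKM. In the fit without this minimum its log2 fold change was -0.19 (SE 0.24, limma adjusted p = 0.761), and with voom on the recovered reads, on the scale of reads per library total, it was -0.40. The protein that ties band 3 to spectrin therefore had a low transcript level in all 4 libraries and no difference detectable beyond its error.

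Among the skeleton genes, Dmtn passed the threshold and Sptb and Epb41 did not. Dmtn (ENSMUSG00000022099, chr14:70602184-70636048, minus strand, as the tables place it) was at 16.1 and 11.1 FPKM in wt and at 7.38 and 5.13 in cko. Both groups spread, but the highest cko library stayed below the lowest wt library, with 640 against 966 reads. Its log2 fold change was -1.01 (SE 0.25, limma unadjusted p = 0.00850, adjusted p = 0.214).

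Sptb (ENSMUSG00000021061, chr12:76580488-76710547, minus strand, GRCm38) was at 5.63 and 4.26 FPKM in wt and at 4.22 and 3.47 in cko. The neighbouring libraries of the groups were equal within counting error, since the interval of wt replicate 2, 4.001 to 4.54, overlapped that of cko replicate 1, 3.95 to 4.49. This gave a log2 fold change of -0.29 (SE 0.21, limma adjusted p = 0.507), which ran from -0.46 without wt replicate 2 to -0.13 without wt replicate 1. The span of Sptb overlaps that of Plekhg3 on the opposite strand, which was at 2.82 and 3.99 FPKM in wt and 3.77 and 3.01 in cko, and whether the counting used strand is not given in the sources used here.

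Epb41 (ENSMUSG00000028906, chr4:131923413-132075321, minus strand, GRCm38) was at 15.6 and 15.2 FPKM in wt and at 14.7 and 12.7 in cko. Here too the nearest libraries overlapped within counting error, 14.8 to 15.7 FPKM in wt replicate 2 and 14.3 to 15.1 in cko replicate 1. Epb41 had a log2 fold change of -0.16 (SE 0.16, limma adjusted p = 0.629), with a 95% interval of -0.55 to 0.23, and ran from -0.26 without cko replicate 1 to -0.06 without cko replicate 2. Epb41 was the third most abundant of the 8 genes by mean FPKM, and its cko mean was the closest to its wt mean.

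Bpgm, the enzyme, had the most negative log2 fold change of the 8 with a pseudocount of 1, while Epb42 was lower by the ratio of mean FPKM (-1.42 against -1.21). Bpgm (ENSMUSG00000038871, chr6:34476207-34505613, plus strand, GRCm38) was at 44.3 and 25.8 FPKM in wt and at 16 and 14.3 in cko. The wt libraries differed from each other by more than the lower of them differed from cko, and the cko libraries lay close together. The log2 fold change was -1.11 (SE 0.27, limma unadjusted p = 0.00725, adjusted p = 0.214). It moved to -0.74 without wt replicate 1 and to -1.49 without wt replicate 2.

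wt replicate 1 was the highest library for all 8 genes, and cko replicate 2 the lowest for 6 of them. The 8 genes summed to 213 and 139 FPKM in wt and 110 and 102 FPKM in cko, and took 0.117% and 0.0829% of counted reads in wt and 0.0700% and 0.0637% in cko. Slc4a1 makes up much of these sums. Taking each gene on its own log2 scale, the median difference from the wt mean was 0.20 and -0.20 in the wt libraries and -0.67 and -0.70 in the cko libraries. Without wt replicate 1, no member passed the fold threshold with an unadjusted p under 0.01 and 2 of 7, Epb42 and Bpgm, kept an unadjusted p under 0.05, at -0.99 and -0.74. Dmtn then had -0.75 and Rhag -0.57. All 8 were lower in both cko libraries than in wt replicate 2, which already follows from the groups being apart.

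**Figure D2:**
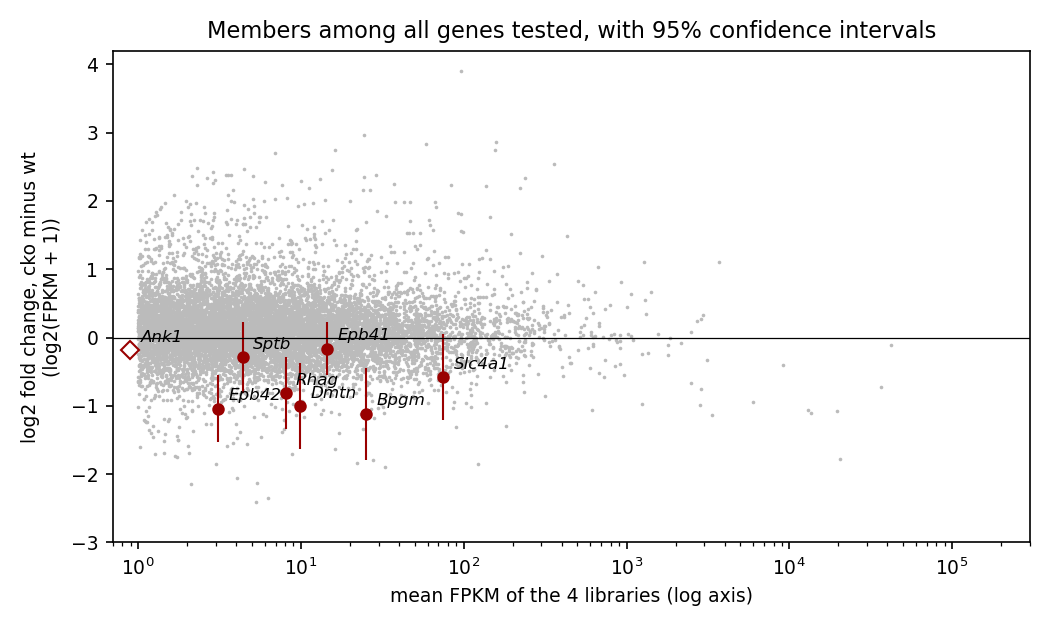
Log2 fold change (cko minus wt, log2(FPKM + 1)) against mean FPKM of the 4 libraries on a log axis, with all tested genes as grey points, the 7 tested red cell membrane and skeleton genes as filled circles with 95% confidence intervals, and the untested Ank1 as an open diamond. The named genes lie below 0, from -0.16 for Epb41 to -1.11 for Bpgm, and the intervals of Slc4a1, Sptb and Epb41 reach above 0.

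Set among all genes, the median log2 fold change of the 8 was -0.69, and that of all tested genes was 0.09. Ordered from the lowest value among 10779 tested genes, Bpgm stood at place 69, Epb42 at 90, Dmtn at 101, Rhag at 192, Slc4a1 at 483, Sptb at 1592 and Epb41 at 2547. All 7 were in the lower 39.6% of genes with a negative fold change. Genes called at the fold and p threshold were otherwise mostly higher in cko, with 203 higher and 44 lower. This split depends on the scaling as well, as it was 146 against 65 under median-of-ratios scaling, 148 against 73 under quantile normalisation and 161 against 61 after rescaling without the 10 highest genes. The median of all genes moved from 0.09 to -0.02 under quantile normalisation, and the 7 tested genes were below 0 under each of these scalings, Ank1 having no value under quantile normalisation. Slc4a1 had an unadjusted p under 0.05 under each of them, at -0.68, -0.67 and -0.66.

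The genes with the most exonic bases differed least. Ank1, Sptb and Epb41 have at least 12147 exonic bases, and their log2 fold changes were -0.19, -0.29 and -0.16. The other 5 have 2339 to 5417 bases and ran from -0.58 to -1.11. Over all tested genes of at least 12147 bases (391 genes) the median was 0.18, and over those of 2339 to 5417 bases (4291 genes) it was 0.08. Genes with many exonic bases thus lay slightly higher as a class, by less than the gap among the 8. The part of exonic length in that gap was not tested. Exonic bases are merged over all annotated exons of a gene and are not the length of 1 transcript.

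By mean FPKM over the 4 libraries, a level per length, the order was Slc4a1 (74.8), Bpgm (25.1), Epb41 (14.6), Dmtn (9.93), Rhag (8.04), Sptb (4.39), Epb42 (3.09) and Ank1 (0.895). Neighbours in this order overlapped in the wt libraries for Epb41 and Dmtn, for Dmtn and Rhag and for Sptb and Epb42. In the cko libraries they overlapped for Bpgm and Epb41 and for Dmtn and Rhag. Some proportions among the genes kept the groups apart and others overlapped, and none was tested. Bpgm stood at 0.391 and 0.378 of the Slc4a1 FPKM in wt and at 0.269 and 0.246 in cko, and Epb42 at 0.0413 and 0.0630 in wt and at 0.0255 and 0.0317 in cko. Epb41 in contrast stood at 0.138 and 0.222 of Slc4a1 in wt and at 0.247 and 0.219 in cko, which overlap.

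Hbb-bs, an adult beta-globin gene, served as a second yardstick of red cell RNA. It was at 1007 and 653 FPKM in wt and 358 and 424 in cko, a log2 fold change of -1.06 (SE 0.24, limma unadjusted p = 0.00518, adjusted p = 0.210). Its reads may be shared with its near-identical copy Hbb-bt, so its level is uncertain. Hbb-bt was at 354 and 56.4 FPKM in wt and 36.3 and 41.3 in cko, so the split between the copies was unlike in the wt libraries. Slc4a1 amounted to 11.3% and 10.5% of the Hbb-bs FPKM in wt and 16.6% and 13.7% in cko. Sptb amounted to 0.559% and 0.653% in wt and 1.18% and 0.818% in cko, and Epb41 and Ank1 were higher against Hbb-bs in cko as well. Against Hbb-bs alone Epb42 went the other way, at 0.466% and 0.659% in wt and 0.424% and 0.433% in cko. This did not hold against both copies together, where Epb42 overlapped between the groups, as Hbb-bt was much higher in wt replicate 1 than elsewhere. Bpgm, Dmtn and Rhag overlapped between the groups on this scale, as for Rhag with 1.24% and 1.33% in wt and 1.54% and 1.30% in cko.

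**Figure D3:**
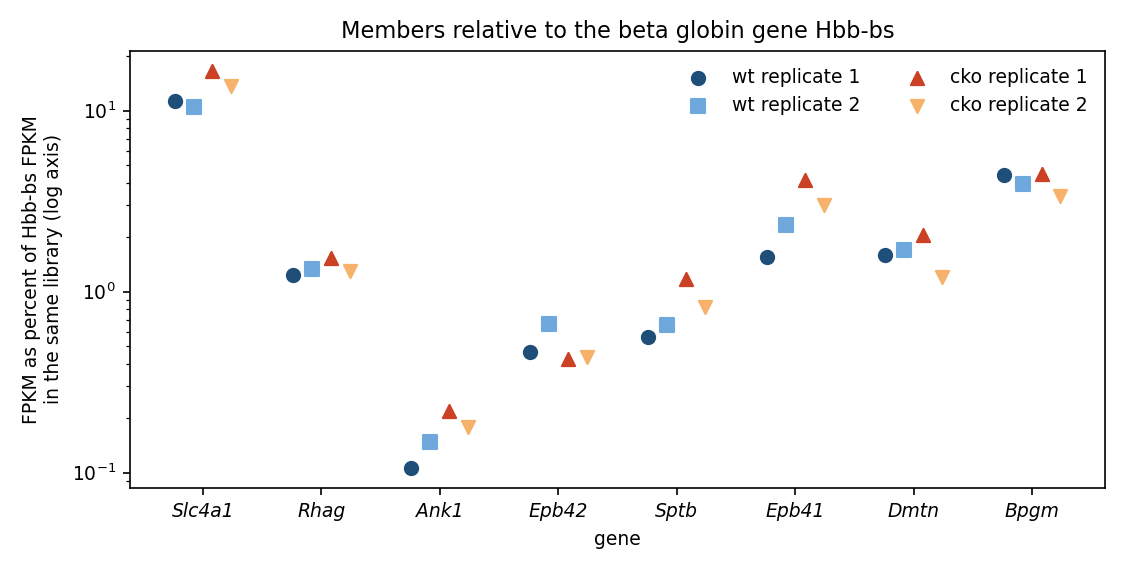
FPKM of each of the 8 genes as a percentage of Hbb-bs FPKM in the same library, on a log axis; circles and squares are wt replicates 1 and 2, triangles pointing up and down are cko replicates 1 and 2. Slc4a1, Epb41, Ank1 and Sptb have both cko points above both wt points, Epb42 has both below (0.424% and 0.433% against 0.466% and 0.659%), and Dmtn, Bpgm and Rhag overlap. Against Hbb-bs and Hbb-bt together, which is not drawn, Epb42 overlaps as well.

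The start regions of 5 of the 8 genes were held in the RefSeq promoter table (GRCm38.p6), each window reaching from 250 bases before to 50 bases after a start. Erythroid genes are known to be bound by GATA1 and KLF1, so the windows were searched on both strands for GATA words (AGATAA or AGATAG, and TGATAA or TGATAG) and for the CACC word CCNCNCCC, and matches are in capitals. They are shown because these genes differed between the groups to different extents, with Epb42 and Bpgm at one end and Sptb and Epb41 at the other. The windows are chr17:40810899-40811198 (plus strand) for Rhag, chr2:121036828-121037127 (minus) for Epb42, chr6:34476106-34476405 (plus) for Bpgm, chr12:76710498-76710797 (minus) for Sptb and chr4:132075264-132075563 (minus) for 1 of the 3 windows of Epb41.
Rhag: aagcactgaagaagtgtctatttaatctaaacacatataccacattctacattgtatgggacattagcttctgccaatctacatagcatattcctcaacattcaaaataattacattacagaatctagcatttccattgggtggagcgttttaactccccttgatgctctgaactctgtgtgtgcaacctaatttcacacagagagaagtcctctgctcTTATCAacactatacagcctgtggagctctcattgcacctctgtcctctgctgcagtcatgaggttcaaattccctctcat
Epb42: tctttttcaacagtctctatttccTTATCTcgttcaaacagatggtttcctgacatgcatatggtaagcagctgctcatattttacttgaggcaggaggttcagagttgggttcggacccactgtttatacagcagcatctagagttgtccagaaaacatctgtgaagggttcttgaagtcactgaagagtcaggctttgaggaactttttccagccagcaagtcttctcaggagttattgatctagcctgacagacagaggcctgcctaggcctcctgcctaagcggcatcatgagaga
Bpgm: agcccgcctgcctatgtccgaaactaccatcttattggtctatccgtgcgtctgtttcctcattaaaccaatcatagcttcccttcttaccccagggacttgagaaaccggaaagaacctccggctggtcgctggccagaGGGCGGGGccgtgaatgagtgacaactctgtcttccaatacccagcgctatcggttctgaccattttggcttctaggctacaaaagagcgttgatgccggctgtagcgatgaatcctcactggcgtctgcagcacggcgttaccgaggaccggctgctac
Sptb: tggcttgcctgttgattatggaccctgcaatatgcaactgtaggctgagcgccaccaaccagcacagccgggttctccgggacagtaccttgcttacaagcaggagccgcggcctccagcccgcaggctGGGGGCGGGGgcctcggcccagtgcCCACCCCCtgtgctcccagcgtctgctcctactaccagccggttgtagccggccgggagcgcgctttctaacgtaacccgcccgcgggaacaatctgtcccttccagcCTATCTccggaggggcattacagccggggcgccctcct
Epb41: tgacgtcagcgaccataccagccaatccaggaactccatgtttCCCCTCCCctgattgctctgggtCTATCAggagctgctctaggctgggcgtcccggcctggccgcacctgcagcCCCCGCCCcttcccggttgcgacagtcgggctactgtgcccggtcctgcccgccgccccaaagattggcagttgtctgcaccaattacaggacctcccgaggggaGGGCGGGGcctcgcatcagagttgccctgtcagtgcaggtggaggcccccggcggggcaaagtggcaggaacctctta

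Rhag held 1 GATA word 31 bases before its start and Epb42 held 1 at 226 bases before. Sptb held 1 GATA word 12 bases after its start and 3 CACC words. The printed Epb41 window held 1 GATA word and 3 CACC words. Bpgm held no GATA word and 1 CACC word 110 bases before its start. In all, 4 of the 5 genes had a GATA word and 3 a CACC word in at least 1 of their windows. Of all 32851 windows, 29.8% hold a GATA word and 49.5% a CACC word. These shares are per window and the counts per gene, and Epb41 has 3 windows, so they are not like for like. A GATA word was held by Epb42, with a larger difference, and by Sptb, with a smaller one. CACC words numbered 3 in Sptb and in the printed Epb41 window, 1 in Bpgm and 0 in Rhag and Epb42. The Epb41 windows not printed held 6 and 0. G and C made up 65.7% of the Sptb window and 65.3% of the printed Epb41 window. They made up 54.7% for Bpgm, 40.7% for Rhag and 46.0% for Epb42. The part of base content in these counts was not tested, and they describe 5 genes. A match is a string of letters and not a site shown to be bound.

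The rest of the membrane and skeleton system differed less evenly. Of 30 further genes of this kind, such as the Rh antigen Rhd and the water channel Aqp1, 29 had a row and 25 were tested, of which 18 were lower and 7 higher in cko, and their median log2 fold change was -0.24, which came to -0.01 without wt replicate 1. At an unadjusted p under 0.05, 4 were lower, among them Rhd, Aqp1 and Cd59a, and 1 was higher (Slc2a1), named here after their values were seen, against backgrounds of 4.95% lower and 11.4% higher. Rhd, the partner of Rhag in the Rh complex, was at 96.6 and 71.9 FPKM in wt and 57.2 and 50.7 in cko, a log2 fold change of -0.62. Aqp1 was at 66.3 and 46.1 in wt and 36.6 and 37.1 in cko, a log2 fold change of -0.57. Both genes thus kept the groups apart, as Rhag did. Slc2a1, a glucose transporter of red cells and many other cells, was at 38.7 and 19.7 in wt and 47.0 and 102 in cko, a log2 fold change of 1.30. The most abundant genes of this list, Tpm3 (a tropomyosin) and Cd47, had log2 fold changes of -0.40 and 0.24 and neither had an unadjusted p under 0.05.

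Relatives of these proteins that serve other cells did not share the direction. Of 28 such genes, 26 had a row and 9 were tested, of which 1 was lower and 8 higher in cko, with a median of 0.21. Of all tested genes 39.6% were lower. The list median was 0.11 under median-of-ratios scaling and also under quantile normalisation. The non-erythroid spectrins Sptan1 and Sptbn1 were at 12.6 and 12.5 FPKM and at 10.9 and 9.78 FPKM in wt, and at 14.6 and 14.9 FPKM and at 11.8 and 10.3 FPKM in cko. Tgm1, a transglutaminase of the family from which protein 4.2 derives, was at 5.98 and 4.37 in wt and 16.2 and 15.5 in cko, a log2 fold change of 1.46 (SE 0.19, limma unadjusted p = 3.61e-04, adjusted p = 0.183). Tgm1 was the 1 of 9 tested genes of this list with an unadjusted p under 0.05, near the background of 11.4% for higher genes.

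Other red cell genes were mostly lower in cko too. Of 8 globin genes listed, 4 were tested and 3 were lower, with Hba-a1 at 1961 and 1366 FPKM in wt and 826 and 840 in cko and a list median of -1.02. This median was -0.62 without wt replicate 1 and -0.15 over the 7 globin genes that had a row. Hba-a1 has a near-identical copy, so its level is uncertain too. Of 10 haem synthesis genes 7 were lower and 3 higher, with a median of -0.29, and 4 (Alas2, Uros, Urod and Fech) were lower with an unadjusted p under 0.05, against a background of 4.95%. The median was -0.16 without cko replicate 2. Alas2, the erythroid first enzyme of the pathway, was at 158 and 116 in wt and 85.6 and 84.2 in cko. Of 8 tested erythroid regulators all 8 had a log2 fold change below 0, against 39.6% of all tested genes, with a median of -0.33. The groups were apart for 4 (background 18.0%), and 2 had an unadjusted p under 0.05 (background 4.95%). Klf1, 1 of these 2, was at 25.5 and 19.7 in wt and 16.3 and 13.4 in cko. The most abundant regulators, Nfe2 and Tfrc, had overlapping groups and log2 fold changes of -0.005 and -0.42, and Ldb1 had -0.01.

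Red cell enzymes other than Bpgm were split in direction. Of 12 listed, 10 had a row and 9 were tested, of which 5 were lower and 4 higher, and 2 (Prdx2 and Blvrb) had an unadjusted p under 0.05, both lower in cko, where the background is 4.95%. The median of -0.11 changed sign to 0.18 without wt replicate 1. G6pdx, the most abundant gene of this list, was at 374 and 400 FPKM in wt and 564 and 436 in cko. Its log2 fold change was 0.36. Pgam1, the glycolytic phosphoglycerate mutase related to Bpgm, was at 147 and 161 FPKM in wt and 163 and 148 in cko. Among early progenitor genes 3 were tested, 2 were lower and 1 higher, with Kit at 4.33 and 3.85 in wt and 2.19 and 2.87 in cko.

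**Figure D4:**
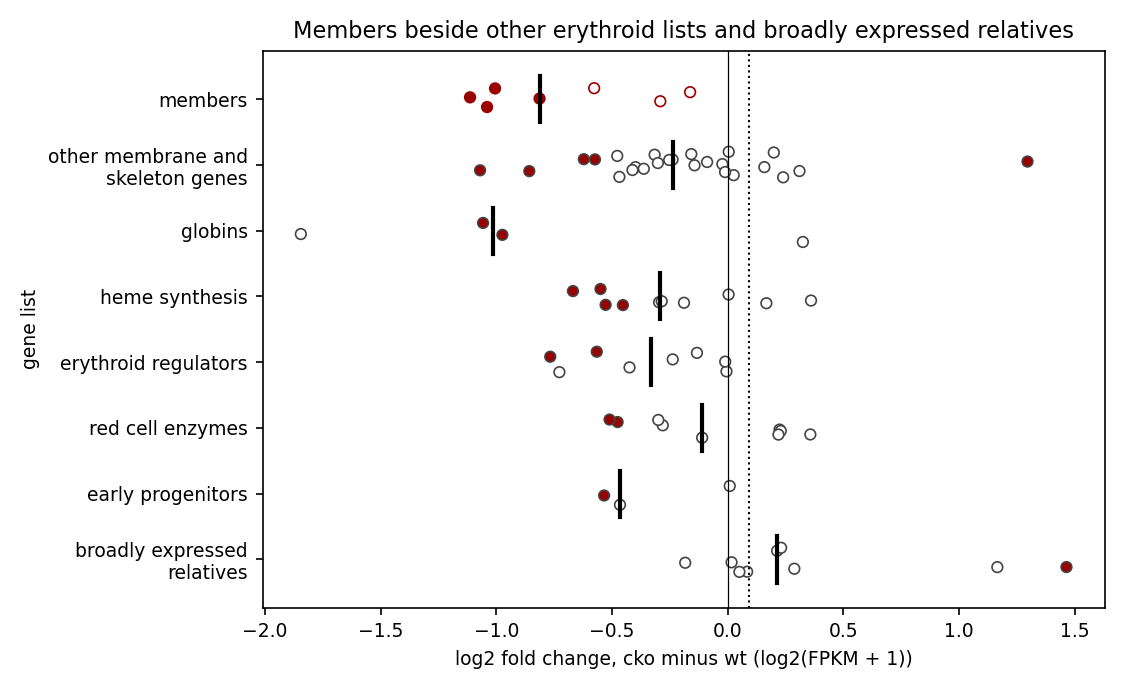
Log2 fold change (cko minus wt, log2(FPKM + 1)) of each tested gene, 1 row of circles per gene list, filled where the unadjusted p was under 0.05; thick bars are list medians and the dotted line is the median of all tested genes, 0.09. The 7 tested members (median -0.81) and the globins (-1.02) lie lowest, and the broadly expressed relatives (0.21) lie to the right of the dotted line by their median.

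The genes whose pattern over the 4 libraries was most like the mean of the tested members were sought among 3814 candidates whose mean reached 10 FPKM, by Euclidean distance between centred log2(FPKM + 1) profiles. S100a9, a neutrophil calcium-binding protein, was nearest at a distance of 0.00827, against a median distance of 0.903 over all candidates. It was at 52186 and 39000 FPKM in wt and 28604 and 26142 in cko. The next were Cox7b, Haus3, Alas2 and Rhd, at 0.0870 to 0.0979, followed by 1700047M11Rik, Gm23306, Cenpx, Anxa1 and Clec4a2 up to 0.140. Alas2 and Rhd are red cell genes, and S100a9, Anxa1 and Clec4a2 are genes of myeloid cells. With 4 libraries a profile has few degrees of freedom, and the likeness is a description.

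Markers of other cell types give the setting of these values. The 6 erythroid markers other than the 8 genes were lower in both cko libraries than in both wt libraries, 6 of 6 against a background of 18.0% of tested genes, with sums of 3251 and 2207 FPKM in wt and 1321 and 1405 in cko, most of it Hba-a1 and Hbb-bs. Each of these markers is also held by a list above. The summed level of 10 granulocyte markers ran the same way, at 158978 and 134508 FPKM in wt and 108791 and 90110 in cko, although 6 of the 10 were lower and 4 higher. Sums of 10 monocyte and macrophage markers were 750 and 660 in wt and 655 and 910 in cko, and those of 9 hepatocyte markers 85.0 and 143 in wt and 59.7 and 71.8 in cko. Lymphoid markers summed to 46.2 and 61.7 in wt and 31.3 and 40.6 in cko, and 3 of 3 tested were lower. Megakaryocyte markers summed to 25.3 and 10.5 in wt and 10.3 and 17.8 in cko. No marker of these lists was at 0 in all libraries. The part of cell composition in the lower levels of the 8 genes was not tested.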

How the data were processed

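The 4 RNA-seq libraries, 2 wt and 2 cko, were grouped by their labels. The authors deposited FPKM values for 24706 genes, 1 library per file, with positions and gene ontology terms. The submitters' processing notes name Bowtie2 2.2.3, TopHat2 2.0.12, HTSeq 0.6.0 and mm9, yet 92.6% of positions were identical to GENCODE M21 (GRCm38), which is the build given here. Filters were not given in the sources used here. FPKM steps were whole multiples of 1 read, which gave reads for 98.5% of genes (single-exon values whole within 0.02 reads). Clopper-Pearson intervals (95%) cover counting error only.

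Groups were compared on log2(FPKM + 1) by limma 3.58.1 under R 4.3.3, with a trend and no covariates, over the 10779 genes whose mean reached 1 FPKM and with p-values adjusted over all of them. FPKM were not scaled between libraries. Figures were drawn with matplotlib 3.10.9. The procedure was run on simulated data with planted log2 fold changes of 2 in size. These were larger than those of the 8 genes, so the run does not test changes of their size. The 8 genes and all lists were chosen with earlier results of these data known. Named from each list were up to 4 genes with an unadjusted p under 0.01, otherwise the 2 with the highest mean, and the 10 genes nearest in profile; further genes were named after their values were seen. Same-numbered libraries deviated with a correlation of -0.163 across genes, so the numbers were not taken as pairs. Alternatives were other pseudocounts, filters, scalings, a fit without trend, a replicate block, voom on the reads, and leaving out each library.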

Additional observations from a re-analysis of the deposited data

How the results depend on the processing

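All 8 genes were below 0 in every alternative in which they had a value (116 of 116 values). Most of these signs were fixed in advance. Changing the filter, trend or pairing leaves the fold change as it is. With the groups apart, another pseudocount, the ratio of means or a left-out library cannot turn the sign. Only the other scalings and voom could have done so. The median of the 8 genes, -0.69, was -0.92 under quantile normalisation, where only the 7 tested genes have a value (-0.81 without it). When 1 library was left out, the median of the 8 genes was -0.995 to -0.39, the latter without wt replicate 1. Of the 3 members past the fold threshold with an unadjusted p under 0.01, 1 was counted when no filter was set, 1 in the fit lacking a trend, and 0 to 2 when 1 library was left out (0 without wt replicate 1, cko replicate 1 or cko replicate 2). Members with an unadjusted p under 0.05 were 4, and 2 to 5 when 1 library was left out. Members with groups apart were 8, and 5 with a minimum mean of 5 FPKM, which only 5 passed. Groups that are apart with all libraries stay apart when 1 is left out, so leaving out a library cannot test this count. The count was not run under quantile normalisation. Of all genes, 0 passed the adjusted threshold, 2 with voom on recovered reads, 1 with crossed pairing, and 0 when any 1 library was left out. Genes past the fold threshold with an unadjusted p under 0.01 were 247, 126 with a minimum mean of 5 FPKM, and 131 to 462 when 1 library was left out. Of 213 further values for single genes and lists, 173 held their direction and call or moved within the replicate spread, 2 passed an unadjusted p of 0.05 no longer (Dmtn and Rhag without wt replicate 1), 6 newly passed it (all Slc4a1) and 32 moved by more than the spread. With the replicate block, 258 genes were called and the members' counts were 3 and 4, as without it. Crossed pairing, added after the data were seen, called 363 genes, with 2 members past the fold threshold and 5 with an unadjusted p under 0.05. The causes were not tested. A left-out library leaves 1 in its group, which is then assumed to vary like the other group. With 2 libraries a group the precision is set by their spread, and for Ank1 and Epb42 also by their low read numbers.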
